A study of Mus musculus with 16 samples.

Results

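Chemokine mRNA was examined in dispersed mouse islet cells for 7 genes, Ccl2, Ccl7, Cxcl1, Cxcl2, Cxcl10, Cxcl16 and Cx3cl1, taken by symbol from a table of 25105 genes. All 7 were listed. Ccl2, Cxcl16 and Cx3cl1 were above 1 RPKM (reads per kilobase of transcript, scaled to library size) in 16 of 16 libraries, and Ccl7 in 13 of 16. Cxcl1 and Cxcl10 passed 1 RPKM in 1 library each, and Cxcl2 in 0. The monocyte attractants Ccl2 and Ccl7 rose with the JNK inhibitor in control cells, Ccl7 from a mean of 1.16 to 4.17 RPKM, and had their highest group means in the group with both Cre and the inhibitor. The sum of macrophage markers was also higher with the inhibitor in control cells. Its highest group median was there, at 265 RPKM, against 233 RPKM with both Cre and the inhibitor. The sum of 6 duct markers was higher in control cells with the inhibitor too, at 377 to 913 RPKM against 136 to 276 RPKM without it. Of these genes 3 were tested there, and 1 was called higher unadjusted and 0 adjusted, beside 2.69% and 0.146% of all genes. Cxcl16 and Cx3cl1 did not pass the test in any comparison.

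Islets came from mice of strain B6.129(Cg)-Hspa5tm1.1Alee/J, adults over a wide span of ages, which are homozygous for a floxed Grp78 allele (flox/flox). Every group shared this genotype. The cells were transduced with adenovirus carrying LacZ (Ad-LacZ, control) or Cre recombinase (Ad-Cre, knockdown) and kept for 72 h in 15 mM glucose. They received the vehicle DMSO in the groups Ad-LacZ and Ad-Cre. The 2 groups named with the JNK inhibitor received the pan JNK inhibitor JNK-IN-8 from the start. Each of the 4 groups held 1 library from each of 4 islet preparations, named F1, M1, M2 and F2, so that parallel cultures of a preparation were compared. The virus reaches any dispersed cell and is not restricted to β cells, and the RNA was bulk, so that fewer cells of a type and less RNA per cell cannot be told apart. The labels give 2 animal numbers per preparation, while the study counts single mice.

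Chemokines are small secreted proteins that guide leukocytes along a gradient, and they are classed by the spacing of their first cysteines. CCL2 and CCL7 act on the receptor CCR2 and draw monocytes. CXCL1 and CXCL2 act on CXCR2 and draw neutrophils, and CXCL10 acts on CXCR3 on activated T cells. CXCL16 and CX3CL1 are made as transmembrane proteins on the cell surface and can be shed by the proteases ADAM10 and ADAM17. Many chemokine genes are induced through NF-κB and AP-1, and AP-1 contains the JNK substrate JUN. In islets, chemokine transcripts are known both from endocrine cells exposed to cytokines and from resident macrophages and stromal cells.

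A cysteine pair with the spacing of its class was located in the coding sequence of each gene. The stretches below are from GENCODE transcripts (GRCm38), 5′ to 3′, with the codons of that pair in capitals. The pair was chosen by the spacing that the gene name implies, so that the spacing is not a result. In Ccl2 and Ccl7 it is 0 codons between the capitals, in the 4 Cxcl genes 1 codon, and in Cx3cl1 3 codons.
Ccl2: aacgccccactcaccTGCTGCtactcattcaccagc
Ccl7: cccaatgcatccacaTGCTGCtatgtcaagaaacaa
Cxcl1: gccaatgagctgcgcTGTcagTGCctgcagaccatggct
Cxcl2: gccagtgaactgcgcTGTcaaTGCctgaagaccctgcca
Cxcl10: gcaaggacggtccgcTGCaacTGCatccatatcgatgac
Cxcl16: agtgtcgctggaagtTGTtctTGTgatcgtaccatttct
Cx3cl1: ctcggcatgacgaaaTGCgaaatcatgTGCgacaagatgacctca
The membrane-anchored members have the longest coding sequences, 246 codons in Cxcl16 and 395 in Cx3cl1, against 96 to 148 codons in the other 5. The near relatives remain separable by sequence, since the longest identical run was 23 bases between Ccl2 and Ccl7 transcripts and also 23 between Cxcl1 and Cxcl2.

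Ccl2 (ENSMUSG00000035385) lies at chr11:82035571-82037453 and Ccl7 (ENSMUSG00000035373) at chr11:82045712-82047525, both on the plus strand of GRCm38. On the same chromosome, Cxcl16 (ENSMUSG00000018920) lies at chr11:70453983-70459984 on the minus strand. Chromosome 5 carries Cxcl1 (ENSMUSG00000029380) at chr5:90891241-90893115 and Cxcl2 (ENSMUSG00000058427) at chr5:90903871-90905938, both on the plus strand, and Cxcl10 (ENSMUSG00000034855) at chr5:92346638-92348889 on the minus strand. Cx3cl1 (ENSMUSG00000031778) lies at chr8:94772009-94782427 on the plus strand. The RPKM values refer to whole genes and do not separate exons.

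The depth of a library, read from the whole-read steps between its low RPKM values, was 7.72 to 25.5 M reads. The group medians were 22.0 M in Ad-LacZ, 23.0 M in Ad-Cre, 22.9 M in Ad-LacZ + JNK inhibitor and 17.4 M in Ad-Cre + JNK inhibitor. The shallowest library was preparation F2 of Ad-Cre + JNK inhibitor, the only library labelled with another sequencing run and lane. At this depth Ccl2 rested on 34 to 220 reads per library and Ccl7 on 7 to 126. Cxcl16 rested on 49 to 419 reads and Cx3cl1 on 52 to 382, whereas the medians for Cxcl1, Cxcl2 and Cxcl10 were 5.5, 1.5 and 9.0 reads. Hspa5, which encodes GRP78 and is the targeted gene, was 438 ± 49.0 RPKM (SD, n = 4) in Ad-LacZ and 1264 ± 231 RPKM (SD, n = 4) in the libraries labelled Ad-Cre. This goes against the label of a knockdown, so each direction below is that of the libraries labelled Ad-Cre. By qPCR on parallel aliquots of the RNA, the study reports less Grp78, with more Grp94 and Calr. It also reports partly reduced GRP78 protein in such cultures by blot. Whole-gene RPKM does not show the floxed exons apart, and the difference from the qPCR was not tested.

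**Figure D1:**
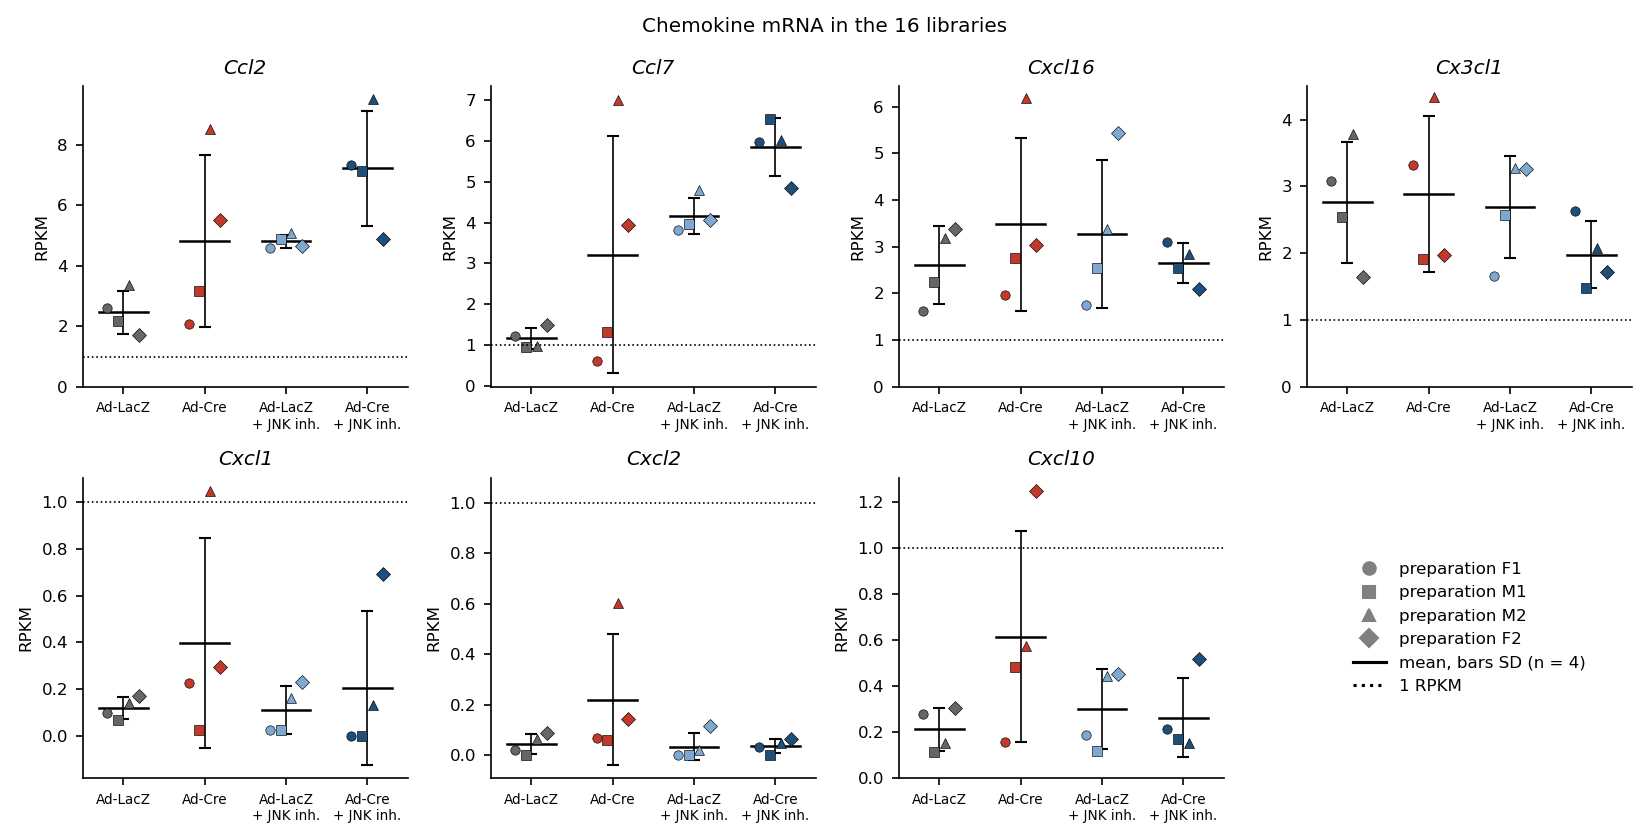
Level of each chemokine in RPKM (vertical axes) in the 4 groups, with 1 point per library shaped by islet preparation, the mean as a line, the SD as bars (n = 4) and 1 RPKM dotted. Ccl2 and Ccl7 sit highest in Ad-Cre + JNK inhibitor, the 4 values of Ccl7 in Ad-Cre run from 0.613 to 7.01 RPKM, and Cxcl1, Cxcl2 and Cxcl10 stay near or under 1 RPKM.

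Ccl2, the main attractant of monocytes, was above 1 RPKM in every library and lowest in untreated control cells. In preparations F1, M1, M2 and F2 it was 2.60, 2.18, 3.36 and 1.70 RPKM in Ad-LacZ. In Ad-Cre it was 2.09, 3.17, 8.54 and 5.50 RPKM. The Ad-Cre values spread widely, and those of F1 and M1 lay among the controls. With the inhibitor, Ccl2 was 4.60, 4.88, 5.10 and 4.66 RPKM in Ad-LacZ, a narrow range above all 4 untreated controls. In Ad-Cre + JNK inhibitor it was 7.35, 7.15, 9.52 and 4.89 RPKM, where only F2 fell within the range of Ad-LacZ + JNK inhibitor. The mean was highest in Ad-Cre + JNK inhibitor (7.23 ± 1.89 RPKM, SD, n = 4) and lowest in Ad-LacZ (2.46 ± 0.704 RPKM). Between them lay Ad-Cre at 4.83 ± 2.86 RPKM, followed by Ad-LacZ + JNK inhibitor at 4.81 ± 0.227 RPKM, a difference within their spread.

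Ccl7, the neighbour of Ccl2 in the genome and its partner at CCR2, was likewise lowest in Ad-LacZ and highest with Cre and the inhibitor together. In F1, M1, M2 and F2 it was 1.23, 0.954, 0.977 and 1.49 RPKM in Ad-LacZ, close to the limit of 1 RPKM. In Ad-Cre it was 0.613, 1.31, 7.01 and 3.94 RPKM. F1 lay below every control, M1 among them, and M2 and F2 above all of them. With the inhibitor Ccl7 was 3.83, 3.96, 4.81 and 4.07 RPKM in Ad-LacZ and 5.99, 6.55, 6.03 and 4.85 RPKM in Ad-Cre. All 8 libraries with the inhibitor thus exceeded all 4 Ad-LacZ libraries. The group means were 1.16 ± 0.253 RPKM in Ad-LacZ, 3.22 ± 2.91 in Ad-Cre, 4.17 ± 0.440 with LacZ and the inhibitor, and 5.85 ± 0.717 with Cre and the inhibitor (SD, n = 4), where the spread of Ad-Cre spans its neighbours on either side.

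Cxcl16, the transmembrane ligand of CXCR6, was present at similar levels in the 4 groups. In F1, M1, M2 and F2 it was 1.61, 2.25, 3.19 and 3.38 RPKM in Ad-LacZ and 1.97, 2.75, 6.18 and 3.03 RPKM in Ad-Cre. It was 1.75, 2.54, 3.38 and 5.43 RPKM in Ad-LacZ + JNK inhibitor and 3.11, 2.55, 2.84 and 2.10 RPKM in Ad-Cre + JNK inhibitor. The ranges of all 4 groups overlapped. Cx3cl1 (fractalkine), the ligand of CX3CR1, was 3.07, 2.54, 3.78 and 1.64 RPKM in Ad-LacZ and 3.32, 1.91, 4.33 and 1.97 RPKM in Ad-Cre. It was 1.66, 2.57, 3.27 and 3.26 RPKM in Ad-LacZ + JNK inhibitor and 2.63, 1.48, 2.08 and 1.71 RPKM in Ad-Cre + JNK inhibitor, the group with the lowest mean. These ranges overlapped as well.

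The neutrophil attractants were close to the limit of detection. Cxcl1 in F1, M1, M2 and F2 was 0.0955, 0.0679, 0.139 and 0.172 RPKM in Ad-LacZ, and 0.224, 0.0224, 1.05 and 0.295 RPKM in Ad-Cre. It was 0.0252, 0.0235, 0.162 and 0.230 RPKM in Ad-LacZ + JNK inhibitor, and 0, 0, 0.131 and 0.691 RPKM in Ad-Cre + JNK inhibitor. The single value above 1 RPKM, in M2 of Ad-Cre, came from 44 reads. Cxcl2 was 0.0216, 0, 0.0631 and 0.0890 RPKM in Ad-LacZ, and 0.0678, 0.0608, 0.604 and 0.144 RPKM in Ad-Cre. With the inhibitor it was 0, 0, 0.0209 and 0.114 RPKM in Ad-LacZ, and 0.0331, 0, 0.0476 and 0.0626 RPKM in Ad-Cre. M2 of Ad-Cre was again the highest library, with 28 reads. A count of 0 reads allows up to 3 reads, or 0.0770 to 0.110 RPKM in the 2 libraries without a Cxcl1 read and 0.0639 to 0.0923 RPKM in the 4 libraries without a Cxcl2 read, for counting error only.

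Cxcl10, the interferon-inducible attractant of activated T cells, was 0.278, 0.113, 0.154 and 0.307 RPKM in F1, M1, M2 and F2 of Ad-LacZ. It was 0.156, 0.484, 0.574 and 1.25 RPKM in Ad-Cre, where F1 again lay among the controls. In Ad-LacZ + JNK inhibitor it was 0.189, 0.117, 0.442 and 0.453 RPKM, and in Ad-Cre + JNK inhibitor 0.213, 0.171, 0.153 and 0.517 RPKM. Every group overlapped with every other, and the highest value, in F2 of Ad-Cre, came from 66 reads.

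One Ad-Cre library, M2, held the group's highest value for 6 of the 7 chemokines, all but Cxcl10. The same library had the highest sum within its group for the markers of macrophages (230 RPKM over 12 genes), endothelial cells (74.6 RPKM over 8) and stellate cells and fibroblasts (1845 RPKM over 9). It also had the lowest sum within its group for the β cell markers (33474 RPKM over 9). The part of cell composition in its chemokine values was not tested.

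The first comparison asked how chemokine mRNA changed with Ad-Cre in the absence of the inhibitor. Groups were compared on log2(RPKM + 1) with limma. A total of 11590 genes exceeded 1 RPKM in 4 or more libraries of the 8 and were fitted, and a gene was called at an unadjusted p under 0.05 with a fold change above 1.5. Of the 7 chemokines 4 were tested and 1, Ccl2, was called, in the direction of Ad-Cre, beside 5.09% of all genes called higher and 5.2% called lower. Its log2 fold change was 0.63 (SE 0.27, 95% confidence interval 0.02 to 1.25), higher in 3 of 4 preparations. With Benjamini-Hochberg adjustment by limma its adjusted p was 0.14, against a background of 4.08% of genes called higher and 4.33% lower at the adjusted threshold. With the preparation as a block the adjusted p of Ccl2 was 0.0452, and 5.57% of genes were then called higher. Without M1, M2 or F2 the unadjusted call was lost, and without F1 Ccl7 was called as well, with a log2 fold change of 1.05.

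The mean of Ccl7 differed by 0.67 on the log2 scale (SE 0.40, 95% confidence interval -0.23 to 1.56), which did not pass the test (limma adjusted p = 0.278). Cxcl16 differed by 0.26 (95% confidence interval -0.25 to 0.77) and Cx3cl1 by 0.03 (-0.48 to 0.54). For the 3 genes under the filter an exact two-sided permutation test was used, whose smallest p with 4 libraries against 4 is 0.0286. It gave p = 0.229 for Cxcl1, p = 0.114 for Cxcl2 and p = 0.0857 for Cxcl10 by exact permutation. Cxcl2 was higher in 4 of 4 preparations and the other 2 in 3 of 4.

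The inhibitor in control cells gave the clearest difference. In Ad-LacZ + JNK inhibitor against Ad-LacZ, both Ccl2 and Ccl7 rose in 4 of 4 preparations, and the groups did not overlap. Mean Ccl7 was 3.58 times and mean Ccl2 1.96 times that of Ad-LacZ on the RPKM scale. On the log2(RPKM + 1) scale, which understates the change of low genes, the fold change was 1.26 for Ccl7 (SE 0.11, 95% confidence interval 1.00 to 1.51, limma adjusted p = 0.00793). For Ccl2 it was 0.77 (SE 0.13, 95% confidence interval 0.47 to 1.07), with a limma adjusted p of 0.0925. Both gave p = 0.0286 in the exact permutation test, the smallest it allows. Without F1, M1 or M2 the limma adjusted p of Ccl7 was 0.123, 0.117 and 0.0956, so that its adjusted call needed all 4 preparations or the other 3 without F2 (0.0351), while both unadjusted calls held in every case. For the inhibitor, calls used an unadjusted p under 0.05 and a fold change above 1.2, by which 2 of the 4 tested chemokines were called, both higher.

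Few genes behaved in this way. Of 11657 genes tested, 2.69% were called higher and 2.14% lower by the unadjusted rule, and 0.146% higher and 0.0515% lower by the adjusted one. In 1.94% of genes the treated libraries all lay above the controls. With the preparation as a block, 0.249% of genes were called higher at the adjusted threshold, Ccl7 among them (limma adjusted p = 0.0372) and Ccl2 not (0.0591). Cxcl16 differed by 0.20 (95% confidence interval -0.30 to 0.69) and Cx3cl1 by -0.03 (-0.43 to 0.37), and neither passed the test. The exact permutation p was 0.743 for Cxcl1, 0.743 for Cxcl2 and 0.400 for Cxcl10.

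In the libraries labelled Ad-Cre, the inhibitor was again accompanied by more Ccl2 and Ccl7, with less certainty. For Ad-Cre + JNK inhibitor against Ad-Cre, the log2 fold change was 1.12 for Ccl7 (SE 0.39, 95% confidence interval 0.23 to 2.01), and 0.75 for Ccl2 (SE 0.29, 0.09 to 1.41). Both were higher in 3 of 4 preparations on deposited RPKM. On the scaled log2 values Ccl7 was higher in 4 of 4, by 0.07 in M2, 0.35 in F2, 1.82 in M1 and 2.24 in F1. In M2 the direction thus turned with the scaling, since its deposited Ccl7 was 7.01 RPKM in Ad-Cre and 6.03 RPKM with the inhibitor. By the unadjusted rule 2 of 4 tested chemokines were called higher, beside 5.49% of 11503 genes called higher and 2.32% lower. At the adjusted threshold 0.00869% of genes were called higher and 0.00869% lower, and neither Ccl7 (limma adjusted p = 0.488) nor Ccl2 (0.558) was among them. With the preparation as a block, 4.66% of genes were called higher at the adjusted threshold. Ccl7 (limma adjusted p = 0.129) and Ccl2 (0.127) were not among these either. Both unadjusted calls were lost without F1, without M1 and on RPKM without scaling.

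Cxcl16 (log2 difference -0.09, 95% confidence interval -0.57 to 0.39) and Cx3cl1 (-0.23, -0.70 to 0.23) did not pass the test, although Cx3cl1 was lower with the inhibitor in 4 of 4 preparations. Cxcl2 was lower with the inhibitor in 4 of 4 preparations too, with means of 0.219 RPKM in Ad-Cre and 0.0358 RPKM in Ad-Cre + JNK inhibitor. The exact permutation p was 0.0286, before any correction for the 12 such comparisons of the 3 low genes, and 0.0571 on RPKM as deposited. At 0 to 28 reads per library this difference rests on few reads, and it was -0.18 on the log2 scale, or -0.07 without M2. The exact permutation p was 0.514 for Cxcl1 and 0.314 for Cxcl10.

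The fourth comparison asked how Ad-Cre and Ad-LacZ differed when both received the inhibitor. Ccl2 and Ccl7 were higher with Ad-Cre in 4 of 4 preparations. The log2 fold change of Ccl2 was 0.59 (SE 0.19, 95% confidence interval 0.17 to 1.01, limma adjusted p = 0.0525), and that of Ccl7 was 0.52 (SE 0.13, 0.22 to 0.82, limma adjusted p = 0.0245). The Ccl7 groups did not overlap (exact permutation p = 0.0286), a separation with Ad-Cre higher that 11.6% of genes showed, but its fold change was below 1.5. By the rule with that fold, Ccl2 alone was called, 1 of 4 tested, beside 9.75% of 11598 genes called higher and 8.01% lower.

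At the adjusted threshold 7.87% of genes were called higher and 6.69% lower, with 0 of the chemokines passing both criteria. With the preparation as a block Ccl2 passed them (limma adjusted p = 0.0366), beside 8.63% of genes called higher. Without F2 of Ad-Cre + JNK inhibitor, the library from the other run, Ccl2 and Ccl7 both passed the unadjusted and the adjusted rule, and without M2 neither passed the unadjusted one. Cxcl16 differed by -0.06 (95% confidence interval -0.52 to 0.41) and Cx3cl1 by -0.20 (-0.56 to 0.16). The exact permutation p was 0.886 for Cxcl1, 0.83 for Cxcl2 and 0.971 for Cxcl10.

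**Figure D2:**
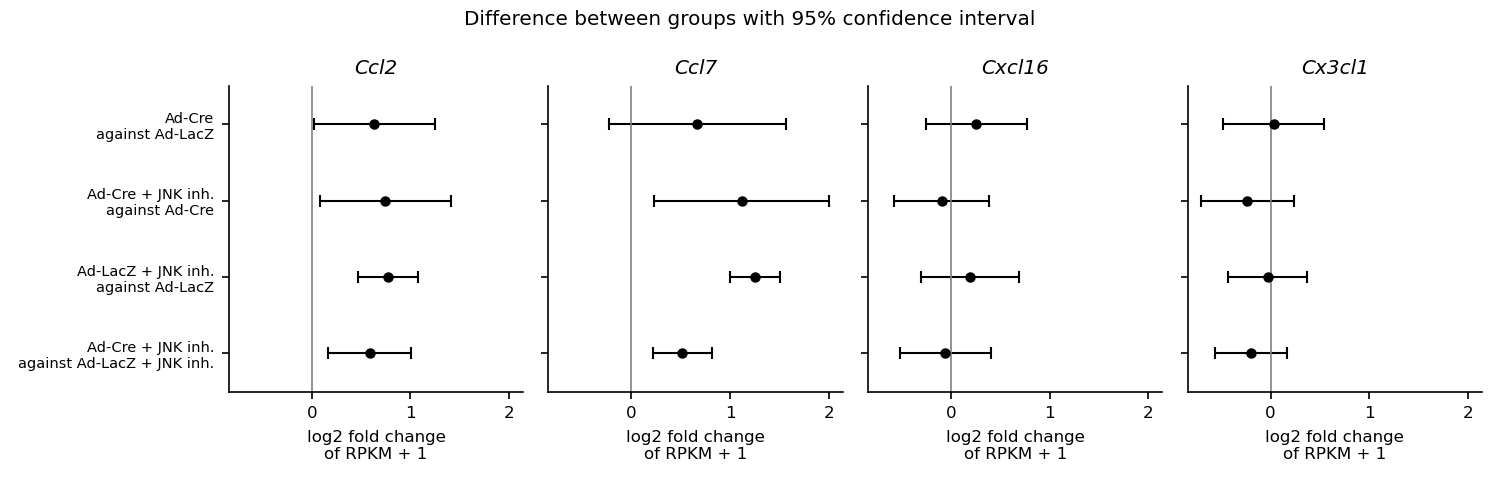
Log2 fold change of RPKM + 1 (horizontal axis) of the 4 tested chemokines in the 4 comparisons, with points for the estimate and bars for the 95% confidence interval from limma (4 libraries per group). For Ccl7 the interval of the inhibitor in Ad-LacZ, 1.00 to 1.51, is the one farthest from 0, while every interval of Cxcl16 and Cx3cl1 includes 0.

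Whether the response to the inhibitor differed between viruses was tested directly as an interaction over all 16 libraries. Of the 4 chemokines tested 0 passed an unadjusted p under 0.05 in limma, as 3.13% of 12274 genes did, and 0 passed after adjustment. The interaction was -0.03 for Ccl2 (95% confidence interval -0.77 to 0.70) and -0.14 for Ccl7 (-1.09 to 0.82). It was -0.31 for Cxcl16 (-1.0 to 0.39) and -0.23 for Cx3cl1 (-0.85 to 0.40). The intervals are wide, so that a difference within these bounds was not detectable with 4 libraries per group.

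Macrophage markers moved with Ccl2 and Ccl7 in some comparisons and not in others. The sum of 12 macrophage genes, in F1, M1, M2 and F2, was 76.7, 85.9, 75.8 and 84.2 RPKM in Ad-LacZ and 76.9, 98.1, 230 and 196 RPKM in Ad-Cre. It was 148, 205, 326 and 334 RPKM in Ad-LacZ + JNK inhibitor and 218, 186, 307 and 247 RPKM in Ad-Cre + JNK inhibitor. As for Ccl2 and Ccl7, all 8 libraries with the inhibitor lay above all 4 Ad-LacZ libraries, and M2 and F2 of Ad-Cre lay far above F1 and M1. With the inhibitor in both groups, the sum was lower with Ad-Cre in M1, M2 and F2, while Ccl2 and Ccl7 were higher in 4 of 4 preparations. Within Ad-LacZ + JNK inhibitor the sum ran from 148 to 334 RPKM while Ccl2 ran from 4.60 to 5.10 RPKM. Of the 12 genes 8 were tested in Ad-Cre against Ad-LacZ, with 6 called higher unadjusted and 3 adjusted. In Ad-LacZ + JNK inhibitor against Ad-LacZ 7 of 8 were called higher unadjusted and 3 adjusted, which were Cd68 (log2 fold change 1.2), the lysozyme gene Lyz2 (2.15) and the adaptor Tyrobp (1.18). When preparation was a block, Cd68 alone passed the adjusted rule there (limma adjusted p = 0.0386), with 0.0549 for Lyz2 and 0.0831 for Tyrobp, while in Ad-Cre against Ad-LacZ 6 of the 8 passed it. In Ad-Cre + JNK inhibitor against Ad-Cre 1 of 8, Lyz2, was called higher unadjusted, and in Ad-Cre + JNK inhibitor against Ad-LacZ + JNK inhibitor 0 of 10 were called in either direction. Over all genes, 5.09% were called higher unadjusted in Ad-Cre against Ad-LacZ, 4.08% adjusted and 5.57% adjusted with the block. For the inhibitor in Ad-LacZ cells these shares were 2.69%, 0.146% and 0.249%. In Ad-Cre + JNK inhibitor 5.49% were called higher unadjusted against Ad-Cre. Against Ad-LacZ + JNK inhibitor 9.75% were called higher and 8.01% lower.

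Among other lists, the 9 stellate and fibroblast markers summed to 164 to 559 RPKM in Ad-LacZ, 178 to 1845 in Ad-Cre, 167 to 1244 in Ad-LacZ + JNK inhibitor and 126 to 775 in Ad-Cre + JNK inhibitor. Of the 6 tested with the inhibitor in Ad-LacZ cells 3 were called higher unadjusted and 0 adjusted, or 1 adjusted with the preparation as a block. The shares of all genes were 2.69%, 0.146% and 0.249%. In the fit with the block 4 of 8 were lower in Ad-Cre than in Ad-LacZ when both had the inhibitor, against 0 without the block. That fit called 1850 of 11598 genes in either direction. Duct markers summed to 136 to 276 RPKM in Ad-LacZ, 104 to 332 in Ad-Cre, 377 to 913 with LacZ and the inhibitor, and 217 to 307 with Cre and the inhibitor. With the inhibitor in Ad-LacZ cells 3 of the 6 duct genes were tested, with a median log2 fold change of 0.39. Of these 1 was called higher unadjusted, 0 adjusted and 1 adjusted with the block, beside the same shares of 2.69%, 0.146% and 0.249%. Markers of lymphocytes summed to at most 3.09 RPKM and those of neutrophils to at most 0.838 RPKM in any library, with Ly6g at 0 in all 16. The β cell list, led by the insulin genes, summed to 33252 to 84724 RPKM over all libraries, so that the labelled tissue was present in each. Of its 9 genes 5 were called lower unadjusted in Ad-Cre against Ad-LacZ and 5 in the same comparison with the inhibitor. By the adjusted rule these counts were 2 and 4, or 6 and 6 with the preparation as a block. The part of these markers in the chemokine results was not tested.

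**Figure D3:**
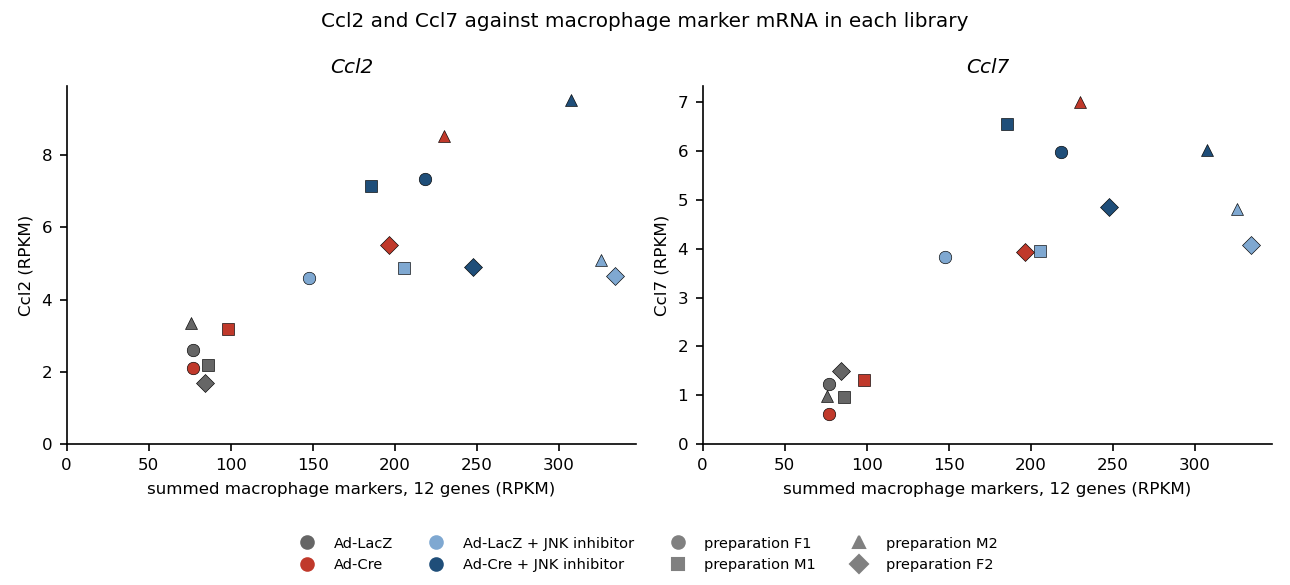
Ccl2 (left) and Ccl7 (right) in RPKM against the summed RPKM of 12 macrophage markers, with 1 point per library coloured by group and shaped by preparation. The 4 Ad-LacZ libraries and F1 and M1 of Ad-Cre lie together at 75.8 to 98.1 RPKM of markers, and all other libraries lie at 148 RPKM or more with higher Ccl2 and Ccl7.

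The ratio of chemokine to marker mRNA within a library was then taken, a measure that no scaling of the library changes and that was added after the values were seen. Ccl2 per 100 RPKM of macrophage markers was 3.09 ± 1.06 in Ad-LacZ, 3.12 ± 0.455 in Ad-Cre, 2.11 ± 0.794 in Ad-LacZ + JNK inhibitor and 3.07 ± 0.793 in Ad-Cre + JNK inhibitor (SD, n = 4). The level of Ccl2 thus rose with the inhibitor in control cells while its ratio to these markers was lower in 4 of 4 preparations (exact permutation p = 0.171, adjusted p = 0.411 over 12 ratio tests). Ccl7 per 100 RPKM of markers was 1.44 ± 0.3, 1.80 ± 0.970, 1.80 ± 0.602 and 2.55 ± 0.75 in the same order of groups. For Ad-LacZ + JNK inhibitor against Ad-LacZ its log2 ratio differed by 0.29 (exact permutation p = 0.343), on the plain log2 scale without a pseudocount.

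With the inhibitor in both groups, the ratios were higher for Ad-Cre in 4 of 4 preparations, by 0.57 on the plain log2 scale for Ccl2 (exact permutation p = 0.171) and by 0.51 for Ccl7 (exact permutation p = 0.114). In that comparison the macrophage markers themselves had 0 calls. Of the 12 ratio tests the smallest exact permutation p was 0.114, and 0 passed an adjusted p under 0.05. Which cells carried the chemokine mRNA was not measured.

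**Figure D4:**
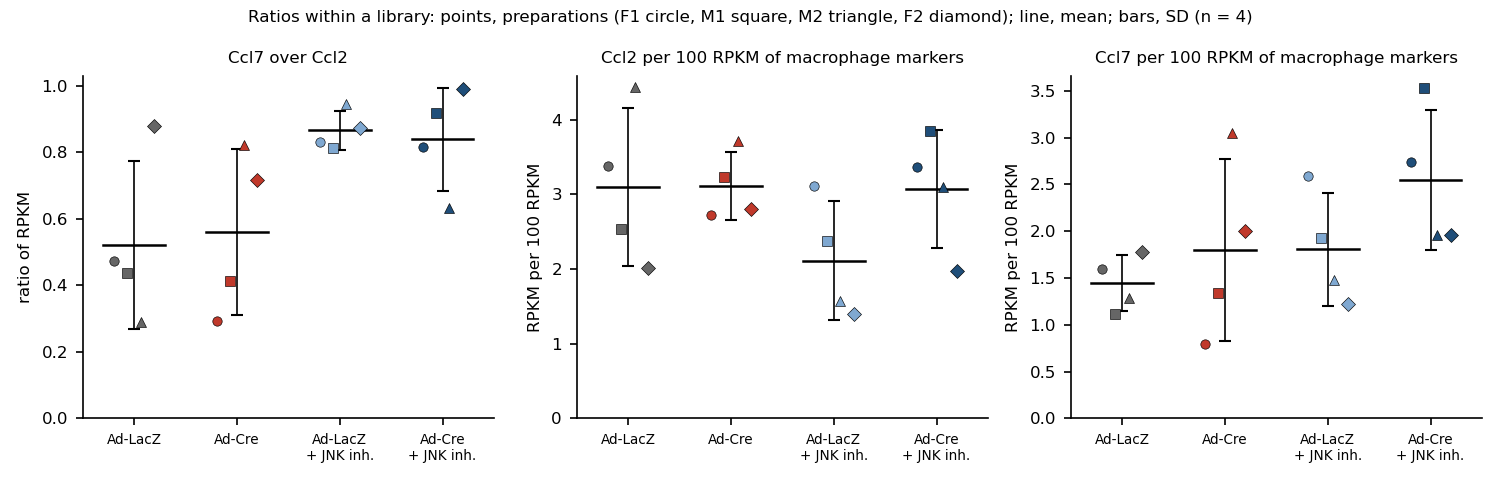
Ratio of Ccl7 to Ccl2 (left) and RPKM of Ccl2 (middle) and Ccl7 (right) per 100 RPKM of macrophage markers, by group, with 1 point per library, the mean as a line and the SD as bars (n = 4). The ranges of Ccl2 per 100 RPKM of markers overlap in all 4 groups, with means of 2.11 to 3.12, and the ratio of Ccl7 to Ccl2 has an SD of 0.0582 in Ad-LacZ + JNK inhibitor against 0.252 in Ad-LacZ.

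The balance of the 2 monocyte attractants was also compared. Ccl7 over Ccl2 was 0.520 ± 0.252 (SD, n = 4) in Ad-LacZ and 0.560 ± 0.249 in Ad-Cre, and 0.865 ± 0.0582 in Ad-LacZ + JNK inhibitor and 0.839 ± 0.155 in Ad-Cre + JNK inhibitor. The difference with the inhibitor did not pass the exact permutation test in Ad-LacZ (p = 0.114) or in Ad-Cre cells (p = 0.171). Across the 16 libraries the log2 levels of the 2 genes correlated with r = 0.92, as a description, since the libraries share preparations and treatments. The correlation of Ccl2 with Cxcl16 was 0.35 and with Cx3cl1 -0.08, and that of Cxcl16 with Cx3cl1 was 0.24.

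By the same measure over 12274 genes and 16 libraries, the genes most like Ccl2 were Ccl7, Ctsz (r = 0.88) and Pla2g7 (r = 0.85), which encode cathepsin Z and a secreted phospholipase. Those most like Ccl7, after Ccl2, were Lipa (r = 0.89) and Cybb (r = 0.87), which encode lysosomal acid lipase and a subunit of the phagocyte NADPH oxidase. The genes most like Cxcl16 were Spns2 (r = 0.83), a sphingosine-1-phosphate transporter, Bak1 (r = 0.81), an apoptosis effector, and Lama5 (r = 0.80), a laminin chain. Those most like Cx3cl1 were Sh2d3c (r = 0.88), Epn2 (r = 0.88) and Gas2l1 (r = 0.79).

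Most chemokine receptors were low. Ccr1, which also binds CCL7, exceeded 1 RPKM in 7 of 16 libraries. Of 22 chemokine receptors 18 were at or under 1 RPKM in all 16 libraries. The highest value in any library was 0.0660 RPKM for Ccr2, the receptor of CCL2 and CCL7, and 0.0293 RPKM for Cxcr2, the receptor of CXCL1 and CXCL2. It was 0.221 RPKM for Cxcr3 and 0.416 RPKM for Cxcr6, the receptors of CXCL10 and CXCL16. Cx3cr1, the receptor of CX3CL1 and also 1 of the 12 macrophage markers, averaged 0.742 RPKM in Ad-LacZ and 1.13 RPKM in Ad-LacZ + JNK inhibitor. Cxcr4, the receptor of CXCL12, averaged 0.968 RPKM in Ad-LacZ and 2.73 RPKM in Ad-LacZ + JNK inhibitor, and was called higher there by the unadjusted rule (limma adjusted p = 0.403). In Ad-Cre against Ad-LacZ it differed by 0.81 (limma adjusted p = 0.165, or 0.0296 with the preparation as a block).

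Of 30 other chemokine ligands 15 passed 1 RPKM in at least 1 library and 2, Cxcl12 and Ccl28, in all 16. Of 4 or 5 tested per comparison the epithelial chemokine Ccl28 alone was called without a preparation block, and lower. With Ad-Cre 5.2% of all genes were called lower, or 8.01% with the inhibitor in both groups. Under the preparation block Cxcl12 was called higher at the adjusted threshold in Ad-Cre against Ad-LacZ (log2 fold change 0.59, limma adjusted p = 0.0434 against 0.315 without the block). With that block 1 of 4 was called higher and 1 lower in Ad-Cre + JNK inhibitor against Ad-Cre. Against Ad-LacZ + JNK inhibitor 2 of 5 were called lower. All genes called in these 3 fits numbered 1281 of 11590, 778 of 11503 and 1850 of 11598. Ccl28 averaged 5.43 RPKM in Ad-LacZ and 2.45 in Ad-Cre (log2 fold change -0.87, limma adjusted p = 0.054, or 0.00163 with the block). With the inhibitor it averaged 8.74 RPKM in Ad-LacZ and 1.66 in Ad-Cre (-1.61, limma adjusted p = 0.0068). Ccl28 thus moved with Ad-Cre in the direction opposite to Ccl2. Cxcl14, a chemokine of epithelia, ranged from 2.58 to 212 RPKM within Ad-LacZ + JNK inhibitor and was not called.

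The sheddases that release CXCL16 and CX3CL1 were well expressed. Adam10 was 16.0 RPKM in Ad-LacZ, 15.1 in Ad-Cre, 20.3 in Ad-LacZ + JNK inhibitor and 12.0 in Ad-Cre + JNK inhibitor, and was called lower in the last group against the third (log2 fold change -0.60, limma adjusted p = 0.0336). Adam17 averaged 4.24 to 5.32 RPKM and was not called in any comparison.

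Of the 14 listed inducing cytokines and receptors, 10 passed 1 RPKM in at least 1 library, Il1b and Il6 among them, and 7 in all 16. Tnf, Il1a, Ifng and Ifnb1 did not pass 1 RPKM in any library, with highest values of 0.520, 0.723, 0.0529 and 0.0577 RPKM. Il1r1, the signalling receptor of interleukin 1, averaged 143 RPKM in Ad-LacZ and 72.4 RPKM in Ad-Cre (log2 fold change -0.97, limma adjusted p = 0.0082). It was also lower in Ad-Cre + JNK inhibitor, at 75.9 RPKM, than in Ad-LacZ + JNK inhibitor, at 198 RPKM (-1.23). Of the 7 or 8 genes of this list tested per comparison, 1 was called lower and 1 higher in Ad-Cre against Ad-LacZ, the latter being Tnfrsf1b (0.88, limma adjusted p = 0.0884, or 0.00945 with the preparation as a block). With the inhibitor in Ad-LacZ cells 2 were called higher unadjusted and 0 adjusted, and in Ad-Cre cells 1 was called lower unadjusted. Beside these, 5.09% of all genes were called higher and 5.2% lower in Ad-Cre against Ad-LacZ. For the inhibitor, 2.69% were called higher in Ad-LacZ cells and 2.32% lower in Ad-Cre cells.

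Of 18 NF-κB pathway genes tested, 0 were called in Ad-Cre against Ad-LacZ and 0 with the inhibitor in Ad-LacZ cells, beside 5.09% of all genes higher and 5.2% lower in the former and 2.69% and 2.14% in the latter. With so few genes, counts of 0 lie close to these shares. Under the preparation block Bcl3, which encodes a nuclear partner of NF-κB, was called higher in Ad-Cre against Ad-LacZ (log2 fold change 0.67, limma adjusted p = 0.00273 against 0.17 without the block). That fit called 5.57% of all genes higher. In Ad-Cre + JNK inhibitor against Ad-Cre 1 was called higher and 1 lower, beside 5.49% and 2.32% of all genes. Against Ad-LacZ + JNK inhibitor 1 was called higher, the inhibitor protein gene Nfkbib (log2 fold change 0.83, limma adjusted p = 0.0075), beside 9.75% of all genes higher and 8.01% lower. With 18 genes tested, counts of 1 lie close to these shares too. Among 9 interferon-pathway genes tested in Ad-Cre against Ad-LacZ, 1 was called, the double-stranded RNA receptor Tlr3, which fell from a mean of 2.24 to 0.962 RPKM (-0.74, limma adjusted p = 0.0054). Among chemokine mRNA decay factors, Hnrnpd (AUF1) fell in the same comparison (-0.66, limma adjusted p = 0.0166). Zfp36, which encodes the decay factor tristetraprolin, averaged 5.17 RPKM in Ad-LacZ and 7.78 in Ad-Cre (0.50, limma adjusted p = 0.0179), a fold change below 1.5.

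Of 6 AP-1 genes tested, 2 were called lower and 1 higher unadjusted with the inhibitor, in Ad-LacZ and in Ad-Cre cells alike, and 0 adjusted. In Ad-Cre against Ad-LacZ 2 were called higher, also by the adjusted rule. Over all genes, 2.69% were called higher and 2.14% lower with the inhibitor in Ad-LacZ cells, and 5.49% and 2.32% in Ad-Cre cells. The share called higher in Ad-Cre against Ad-LacZ was 5.09%, or 4.08% adjusted. Jun averaged 20.8 RPKM in Ad-LacZ and 9.68 in Ad-LacZ + JNK inhibitor (log2 fold change -1.08, limma adjusted p = 0.155), and 21.9 in Ad-Cre and 9.57 in Ad-Cre + JNK inhibitor (-0.95, limma adjusted p = 0.207). Both were called lower by the unadjusted rule. With the preparation as a block these adjusted p were 0.0372 and 0.0096. Jun had similar means in Ad-LacZ and Ad-Cre. Atf3 rose with Ad-Cre, from 2.66 to 8.32 RPKM (1.31, limma adjusted p = 0.0109), and Junb from 14.6 to 24.5 RPKM (0.70, limma adjusted p = 0.0383).

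The promoters of Cxcl1, Cxcl2, Cxcl10 and Cx3cl1, from 250 bases before to 50 after the start in RefSeq (GRCm38.p6), were searched on both strands. The AP-1 motif TGACTCA occurs in 5.2% of all promoters of this length, the NF-κB consensus in 8.46% and the interferon response element GAAANNGAAA in 3.44%. Cxcl1 and Cxcl2 each held an NF-κB match, at 71 and 97 bases before the start and overlapping another by 1 base of shift. Cxcl10 held all 3 motifs and Cx3cl1 held 0. The Cxcl10 stretch chr5:92348890-92349109, written 5′ to 3′ on the minus strand up to the start, is shown because it combines the JNK-linked AP-1 motif with the others, and capitals mark the matches.
Cxcl10 promoter: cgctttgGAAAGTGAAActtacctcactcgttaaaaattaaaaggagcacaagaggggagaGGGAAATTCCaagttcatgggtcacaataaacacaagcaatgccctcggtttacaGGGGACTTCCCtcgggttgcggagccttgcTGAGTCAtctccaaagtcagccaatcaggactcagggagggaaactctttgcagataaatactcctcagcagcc
The matches describe letters only. Cxcl10 itself stayed at or under 1.25 RPKM in every library.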

How the data were processed

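Poly(A) RNA of 16 libraries was sequenced as paired ends on an Illumina HiSeq instrument. Per the labels and the study's methods, the authors aligned reads to the mouse genome (GRCm38) and deposited RPKM, scaled by gene length and library size. The step from counts to RPKM is not given in the sources used here. A further 3 columns that no label names were not used. Whole reads were recovered from RPKM and GENCODE vM21 exon lengths, for depth, reads per gene, the limits at 0 reads and one alternative fit. RPKM was scaled by unweighted TMM (trim 30% of ratios and 5% of levels), filtered (above 1 RPKM in at least 4 of 8 libraries), given a pseudocount of 1 and fitted with limma 3.58.1 (eBayes with trend, R 4.3.3). Ratios and low genes had exact permutation tests. Figures used matplotlib 3.10.9. The procedure was tested on simulated data.

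The preparations pair the libraries, as parallel cultures. Residual correlations of same-named libraries were 0.131 to 0.826 over the 4 comparisons. With replicates from parallel cultures of 4 preparations, p-values measure the spread between these. Among the tests, only the fits with the preparation as a block used the pairing. The other limma fits and the exact permutation tests treated the libraries of a comparison as unpaired. Thresholds of fold 1.5 (virus) and 1.2 (inhibitor) follow the study. The genes named are the 7 chemokines, members of the gene lists, Hspa5 and, for each chemokine above 1 RPKM in at least 4 libraries, the 3 genes with the highest Pearson r. The members and gene lists were chosen with earlier results of these data known. Alternatives are given in the closing section, of which limma-voom on recovered reads and the ratios were added after seeing the data.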

Additional observations from a re-analysis of the deposited data

Results flagged for a closer look

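In 28 groups of 4 libraries, 1 for each of 7 chemokines and 4 groups, the highest or lowest library was compared with the rest by Dixon's ratio of the nearest gap to the range against the 95% critical value. Chance flags about 1 in 20 groups. Cxcl2 in preparation M2 of Ad-Cre was far from the others, at 0.604 RPKM and a ratio of 0.846. Cxcl10 in preparation F2 of Ad-Cre + JNK inhibitor was also far from the others, at 0.517 RPKM and a ratio of 0.836, in the library with the lowest depth.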

How the results depend on the processing

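Each choice was changed alone. The low-value filter was dropped or set to 0.1 RPKM, the pseudocount set to 0.1, and scaling omitted or replaced by quantile normalization. Other fits used every library together, a block for preparation or no eBayes trend. Each preparation, and the library of the other run, was left out in turn. A limma-voom fit on recovered reads was chosen after seeing the data.

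For Ad-Cre against Ad-LacZ the count of chemokines called was 1. It was 0 without a filter and 0 on RPKM as deposited, and 0 to 2 when a preparation was left out. For Ad-Cre + JNK inhibitor against Ad-Cre it was 2, then 0 on RPKM as deposited and 0 to 2 with a preparation left out. For Ad-LacZ + JNK inhibitor against Ad-LacZ it was 2 under every alternative run. For Ad-Cre + JNK inhibitor against Ad-LacZ + JNK inhibitor it was 1. It was 2 with a pseudocount of 0.1, 2 with quantile normalization, 2 with limma-voom and 2 without F2 of Ad-Cre + JNK inhibitor. It was 0 on RPKM as deposited, and 0 to 1 with a preparation left out (2 without that single F2 library). The interaction was 0 under every alternative run. The causes were not tested.

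With the replicate block the counts stayed at 1, 2, 2 and 1, and among the 7 chemokines it changed the adjusted calls of Ccl2 noted beside the results and no other call. Of the single-gene values under these alternatives 281 kept their side of the threshold, 19 lost it and 6 gained it. The sign changed in 17, none of which passed the test in either fit, all of Cxcl1, Cxcl2, Cxcl10, Cxcl16 or Cx3cl1. With all 16 libraries in one fit 0 chemokines passed the adjusted rule for the inhibitor in Ad-LacZ cells, against 1 in the reported fit. The reads behind Cxcl1, Cxcl2 and Cxcl10 limit what their comparisons can show.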
